A study of Rattus norvegicus with 10 samples.

Results

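The sodium-potassium pump (Na,K-ATPase) of RCS cells was examined through the genes of its beta subunits, Atp1b1, Atp1b2 and Atp1b3. Of these 3 symbols, 2 were found among the 10184 genes of the deposited table, Atp1b1 (ENSRNOG00000002934) and Atp1b3 (ENSRNOG00000011501). Atp1b2 was not analysed here. The group of genes was chosen by the measured fall of Atp1b1 in the knockout cells, so the values of Atp1b1 are described without a test. Genes that work with the pump were tested where their level allowed it, and the small regulatory subunits in the table were too low for the test.

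RCS is a rat chondrosarcoma line. The groups were 5 libraries of wild-type (WT) cells and 5 of cells with a knockout of ARSL, an arylsulfatase (ARSL KO), both untreated and harvested 48 h after seeding. The labels call the libraries of each group biological replicates. They do not say whether the knockout is 1 clone or several, so the effect of the genotype and any other difference between the cell lines cannot be told apart. The p-values below measure the spread between these libraries only. Arsl was not found by symbol, so its level gives no check of the genotype. In bulk RNA, fewer cells of a type and less RNA per cell cannot be told apart.

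The pump moves sodium out of the cell and potassium in, at the cost of ATP. Its alpha subunit binds the ions and splits ATP. The beta subunit is a glycoprotein that the alpha subunit needs in order to fold, leave the endoplasmic reticulum and reach the plasma membrane. A small additional subunit of the FXYD family adjusts the affinity for ions. Chondrocytes live in a matrix whose fixed negative charges hold sodium at a high concentration, and the pump sets their internal sodium and potassium.

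Deposited values were variance-stabilized on a scale close to log2 at high reads only, and whole reads were recovered from them. Each library held 2065594 to 2591819 reads over the listed genes. Levels are given as normalised reads, which are reads divided by the size factor of the library, and differences as KO minus WT on the log2-like scale. At low reads such a difference is smaller in size than the log2 of the ratio of reads. Ppfia2, for example, differed by -0.92 while its WT mean was 6.69-fold its KO mean. WT 3, WT 4 and ARSL KO 4 scored 28, 26.8 and 7.9 on the first principal component, above the other 7 libraries (-15 to -3), and results are also given without these 3 where that matters. Of 16 chondrocyte markers, 14 were in the table and all 14 passed the filter on low values. Their summed level was 52630 to 91480 normalised reads in WT and 48540 to 65530 in KO. Lower in KO were 11 of the 14, against 4042 of all 8431 tested genes. Of the 14, 5 had an unadjusted p under 0.05 and 1, the collagen gene Col11a1, was called (difference -1.16, limma adjusted p = 0.0207), against 13.5% and 1.14% of all tested genes. Col11a1 did not pass when replicate 1, 2, 3 or 5 of ARSL KO was left out (limma adjusted p 0.0672, 0.0669, 0.0759 and 0.0834). Acan and Col2a1 had 3886 ± 909 and 2976 ± 905 normalised reads in WT (SD, n = 5), while Sox9 and Snorc were not found by symbol. Of 5 leukocyte markers only Cd68 was listed, with at most 10.5 normalised reads, and of 4 endothelial markers only Vwf was listed. Krt8 was the 1 epithelial marker found, with 431.2 to 509.5 normalised reads in WT and 395.5 to 497.4 in KO. Of 8 fibroblast markers 3 were found, and Fn1 was the most abundant of them.

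Atp1b1, the beta subunit found in most tissues, had 251, 242, 381.8, 386.2 and 323.5 normalised reads in WT 1 to 5. The ARSL KO libraries 1 to 5 had 93.4, 131.4, 92.3, 133.7 and 99.6. The highest KO library thus lay well below the lowest WT library. WT 3 and WT 4 were the highest of all, and ARSL KO 2 and 4 were the highest of their group. Mean levels were 316.9 ± 69 for WT and 110.1 ± 20.7 for KO (SD, n = 5 each), so that KO cells held 34.7% of the WT level, a 2.88-fold fall. On the log2-like scale the difference was -1.25 ± 0.138 (SE). These values rest on 1597 reads in WT and 556 in KO. Without WT 3, WT 4 and ARSL KO 4 the fall was 2.61-fold.

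Atp1b3, the other beta subunit gene in the table, was not detectably higher in KO. It had 447.2, 482.9, 398.3, 388.1 and 383.7 normalised reads in WT 1 to 5. The KO libraries had 409, 463.8, 390.5, 296.7 and 438.6. The groups overlapped, and ARSL KO 4 was the lowest library of all. The means were 420 ± 43.3 for WT and 399.7 ± 64 for KO (SD, n = 5 each), a difference of -0.07 ± 0.114 (SE, 95% interval -0.32 to 0.17; limma adjusted p = 0.806). The ratio of these means, KO over WT, was 0.952. Limma-voom scaled each library by its total reads of tested genes instead of its size factor. By limma-voom the ratio of reads was 0.968, with a 95% interval of 0.796 to 1.18. A rise of Atp1b3 of up to 1.18-fold thus lies within the interval. Without ARSL KO 4 the difference was 0.02. RefSeq lists a rat pseudogene of Atp1b3, and the sources do not say how reads shared with it were counted.

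As a pair, the beta subunit genes had fewer reads in KO. The mean of KO minus WT was -206.8 normalised reads for Atp1b1 and -20.3 for Atp1b3. Their sum was 736.9 ± 38.1 for WT and 509.8 ± 61.6 for KO (SD, n = 5 each), and it went from 710.1 to 529.6 without the 3 libraries named above. Atp1b1 supplied 42.8 ± 7.62% of the reads of the pair in WT and 21.9 ± 5.34% in KO. These sums and shares contain the gene that was picked and carry no test. They are reads not corrected for transcript length, so the shares need not be proportions of molecules.

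**Figure D1:**
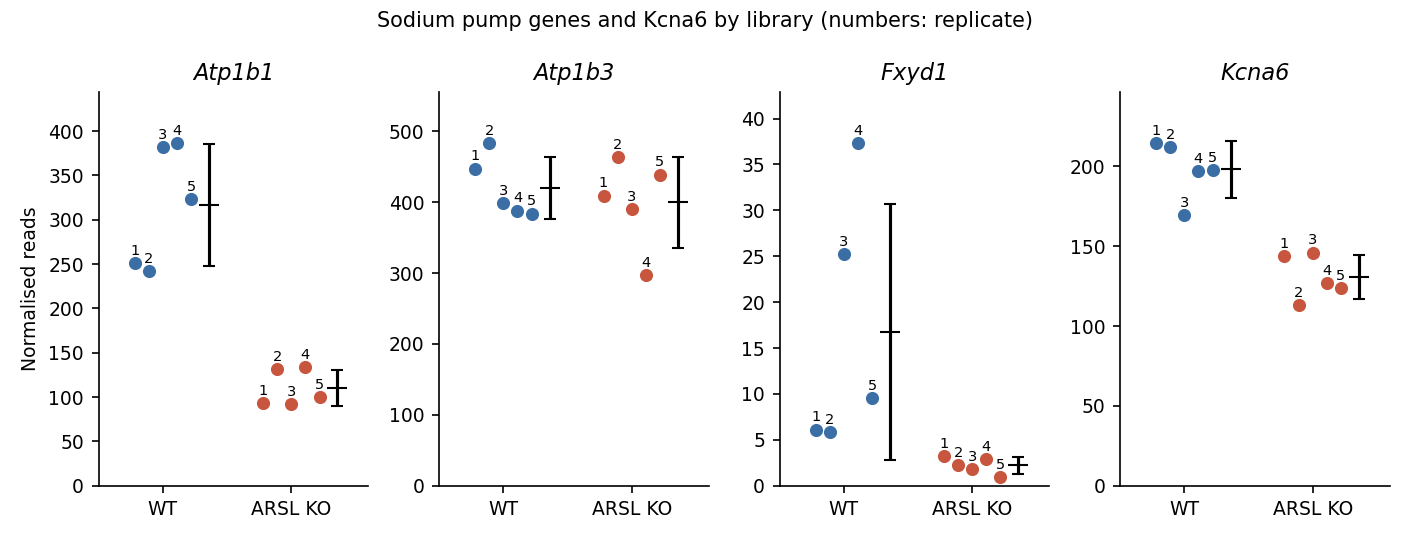
Normalised reads (vertical axes, each from 0) of Atp1b1, Atp1b3, Fxyd1 and Kcna6 in the 5 WT (blue) and 5 ARSL KO (red) libraries, numbered by replicate, with mean and SD in black. The groups are apart for Atp1b1, Fxyd1 and Kcna6 and overlap for Atp1b3.

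Of the 7 FXYD genes, 2 were in the table, and both were too low for the test. Fxyd1 encodes phospholemman, which lowers the ion affinity of the pump until it is phosphorylated. It had 6.1, 5.8, 25.2, 37.3 and 9.5 normalised reads in WT 1 to 5. In the KO libraries it had 3.2, 2.2, 1.8, 2.9 and 0.9. All KO libraries were below all WT libraries, which holds for 2.28% of the 10184 genes of the table, and WT 3 and WT 4 were far above the other WT libraries. These are 84 reads in WT and 11 in KO. With the filter removed, Fxyd1 differed by -0.69 (limma adjusted p = 0.0958) and did not pass, and the ratio of means, 7.58-fold, dropped to 3.51-fold without the 3 libraries high on component 1. Fxyd6, which encodes phosphohippolin, stood at 11.4 ± 3.27 (WT) against 7.09 ± 3.42 normalised reads (KO; SD, n = 5 each), with groups that overlapped (difference -0.22, limma adjusted p = 0.48 with the filter removed).

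The genes around the pump were followed in 6 lists. Across all tested genes 96 of 8431 were called (1.14%, limma adjusted p under 0.05), 74 falling (0.878%) and 22 rising (0.261%), and the median difference was 0.01. Of these 8431, 4042 were lower and 4389 higher in KO. An unadjusted p under 0.05 was found for 1136 (13.5%). With Atp1b1 left out, 1 gene was called over these 6 lists and the pump subunits, the potassium channel gene Kcna6, which fell. Other primary pumps showed no call. Of 19 ion-pumping P-type ATPases 7 were in the table and 6 were tested, with a median difference of 0.00, and limma called 0 (0 at an unadjusted p under 0.05, 0 by limma-voom). The smallest p was that of Atp2a2, the calcium pump of the endoplasmic reticulum, at 599 ± 48.9 normalised reads (WT) against 680.1 ± 37.7 (KO; SD, n = 5 each). Its limma adjusted p was 0.397. Of 16 genes for lipid flippases, related P-type ATPases that have a beta-like subunit of their own, 7 were tested and limma called 0 (median -0.01, 2 at an unadjusted p under 0.05, 0 by limma-voom). Tmem30a, that beta-like subunit, had 190.5 ± 38.5 and 149.1 ± 26.5 normalised reads (SD, n = 5 each; limma adjusted p = 0.352).

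No listed transporter that spends the sodium gradient passed the test with all 10 libraries. Without the 3 libraries high on component 1, Slc38a3 passed as a rise (ratio of means 1.42). Of 40 sodium-coupled transporters 21 were in the table, all 21 were tested and limma called 0 (1 at an unadjusted p under 0.05, 0 by limma-voom). Their median difference was -0.03, with 12 lower and 9 higher in KO and a range of -0.27 to 0.24. Slc12a2, the sodium-potassium-chloride cotransporter NKCC1 that brings sodium and potassium in together, had the smallest p. It stood at 196.5 ± 31.3 normalised reads (WT) against 237.9 ± 27.3 (KO; SD, n = 5 each), a difference of 0.24 ± 0.109 (SE; limma adjusted p = 0.358).

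Among 48 genes for potassium channels, potassium-chloride cotransporters and volume-regulated channels, 13 were in the table and 9 were tested. Kcna6, a voltage-gated potassium channel, fell and 8 did not pass. It had 214.4, 212, 169.6, 196.9 and 197.7 normalised reads in WT 1 to 5. In the KO libraries it had 143.9, 113, 145.9, 126.9 and 123.8. The groups did not overlap, and WT 3 was the lowest WT library, unlike for Atp1b1. The difference was -0.49 ± 0.0939 (SE; limma adjusted p = 0.0203), a 1.52-fold fall in normalised reads. The call was lost without ARSL KO 2 (adjusted p = 0.0669) or ARSL KO 5 (0.0752) and held in the other 16 settings. The median of the 9 genes was -0.10, and 2 of the 9 had an unadjusted p under 0.05. Kcnma1, the large-conductance calcium-activated channel, had 160 ± 39.7 and 109.1 ± 29.4 normalised reads (SD, n = 5 each; limma adjusted p = 0.229).

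The listed genes that regulate or assemble the pump held no call with all 10 libraries. Of 28 regulators 15 were tested, with 12 lower and 3 higher in KO and a median of -0.22, and limma called 0 (4 at an unadjusted p under 0.05, 0 by limma-voom). Nedd4l, a ubiquitin ligase that removes sodium transport proteins from the membrane, had the smallest p. Its mean was 17.2 ± 4.62 normalised reads for WT and 7.71 ± 3.47 for KO (SD, n = 5 each). The KO mean lay below the filter (about 10.7 normalised reads), so the WT level carried Nedd4l into the test. The difference was -0.41 ± 0.12 (SE; limma adjusted p = 0.137). Sgk1, the kinase that restrains Nedd4l, had 51.1 ± 20.7 and 37.9 ± 10.6 (limma adjusted p = 0.55). Snai2, a transcriptional repressor of the Snail family, had 1085 ± 342 and 886.9 ± 116 normalised reads (limma adjusted p = 0.559), and its ratio was 1.00 without the 3 libraries high on component 1. The glucocorticoid receptor gene Nr3c1 had 220.1 ± 45.6 and 184.3 ± 45.9 (limma adjusted p = 0.539). Of 17 genes for folding and glycosylation of membrane glycoproteins 16 were tested, the median was -0.04 and limma called 0 (1 at an unadjusted p under 0.05, 0 by limma-voom). Canx, a chaperone of new glycoproteins, differed by -0.04 (limma adjusted p = 0.843). Uggt1, which checks glycoprotein folding and had the smallest p, stood at 1096 ± 300 (WT) against 733.6 ± 143 normalised reads (KO; SD, n = 5 each; limma adjusted p = 0.17).

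**Figure D2:**
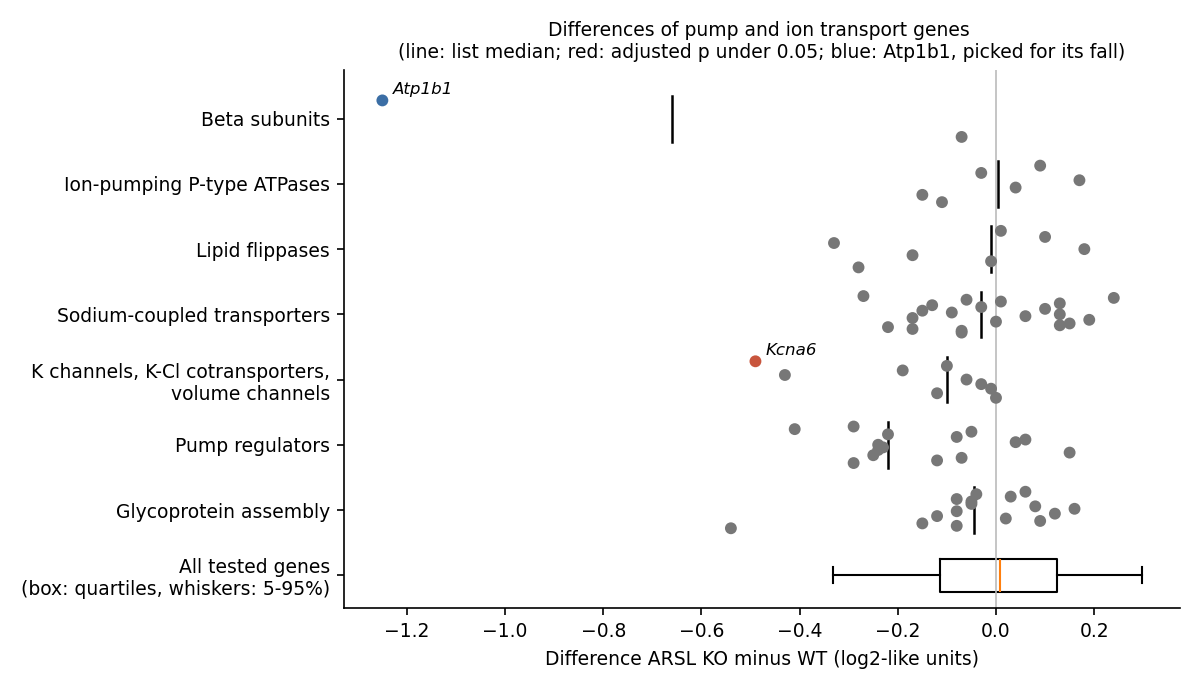
Difference ARSL KO minus WT (horizontal axis, log2-like units) of each tested gene in 7 lists, with the list median as a line and a box for all 8431 tested genes below. Among the genes other than Atp1b1 (blue, picked for its fall and not tested), Kcna6 (red) is the 1 past an adjusted p of 0.05.

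The pattern of Atp1b1 over the 10 libraries was compared with that of 7802 tested genes with a symbol that is no placeholder. Among the 5 with the highest Pearson r were Plekha5 (0.980), Nrp1 (0.969), Peg3 (0.966) and Ppfia2 (0.963). They were chosen for this value, the step between the genotypes sets much of it, and no test is given. After the group means were taken out, r over the same libraries was 0.889 for Plekha5, 0.829 for Nrp1, 0.858 for Peg3 and 0.620 for Ppfia2. The r used for the choice contains these deviations too, so the second r is not free of the choice. WT 3 and WT 4 were the highest WT libraries for Plekha5, Nrp1 and Peg3, as for Atp1b1, and for Ppfia2 WT 5 was level with WT 4. Nrp1, a co-receptor for semaphorins and VEGF, stood at 39.8 ± 13.9 (WT) against 10.2 ± 3.33 normalised reads (KO). Peg3, an imprinted zinc-finger gene, had 625.8 ± 110 and 324 ± 78.6, and Plekha5, a protein with a lipid-binding pleckstrin homology domain, had 244.3 ± 29.1 and 156.2 ± 17.1 (SD, n = 5 each). Ppfia2 had 26.45 ± 6.07 and 3.95 ± 1.47, which rest on 133 reads in WT and 20 in KO. The KO means of Nrp1 and Ppfia2 lay below the filter (about 10.7 normalised reads), so WT levels carried these 2 genes into the test. With the group means taken out, r with Atp1b1 was -0.528 for Atp1b3.

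**Figure D3:**
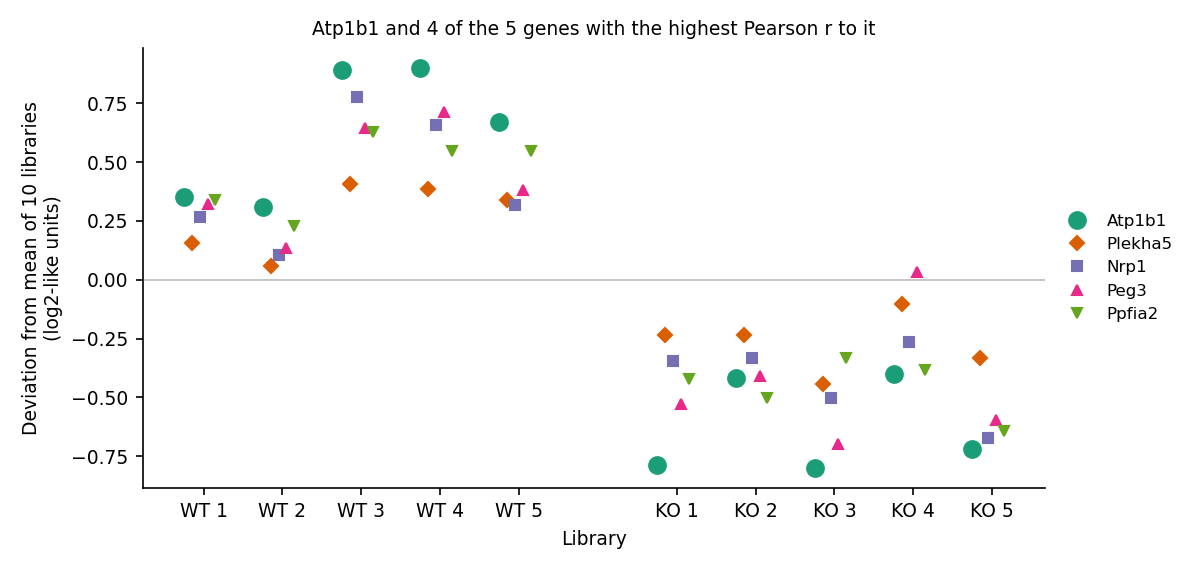
Deviation from the mean of the 10 libraries (vertical axis, log2-like units) for Atp1b1 and 4 of the 5 genes with the highest Pearson r to it, by library. In WT the points of Atp1b1 are highest in replicates 3 and 4, and in KO they are highest in replicates 2 and 4.

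Genes that lie beside Atp1b1 on the chromosome were lower in KO as well. Gene order was taken from RefSeq on GRCr8, another assembly than that of the counts, and this comparison was added after the values were seen. Of the 10 tested genes on each side, 17 of 20 were lower in KO and 3 were higher, with a median difference of -0.34. Over all 8431 tested genes, 4042 were lower and the median was 0.01. KO values were entirely below WT values for 5 of the 20, against 2.4% of tested genes (1.86% had all KO values above WT, and 4.26% did not overlap in either direction). These 5 were Kifap3, Ccdc181, Sft2d2, Creg1 and Pou2f1. Creg1 had a mean of 18.2 normalised reads in WT and 7.49 in KO. Scyl3, among the 17 lower, had 18.5 and 10.66. Both KO means lay below the filter (about 10.7 normalised reads), so WT levels carried these 2 genes into the test. Sft2d2, a membrane protein of vesicle traffic, passed the test, at 909.4 ± 42.4 (WT) against 689.6 ± 41.4 normalised reads (KO; SD, n = 5 each). Its difference was -0.38 ± 0.0817 (SE; limma adjusted p = 0.0375). That call was lost in 11 of 18 other settings (adjusted p up to 0.115). Among them were 9 of the 10 fits with 1 library left out, the exception being that without WT 1 (0.0478). Ccdc181 had 25.3, 25.2, 25.2, 29.6 and 25.4 normalised reads in WT 1 to 5 and 16.1, 13, 12.9, 17.6 and 9.9 in KO 1 to 5 (difference -0.39, limma adjusted p = 0.0682). The gene of coagulation factor V, F5, had the lowest difference of the 20, -0.91 (SE 0.231, limma adjusted p = 0.0832), and its groups overlapped.

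Averaged over the 20 neighbours, the 5 KO libraries stood 0.09 to 0.19 below the mean of all libraries and the 5 WT libraries 0.09 to 0.23 above it. The median neighbour held 72.6% of its WT reads in KO, against 34.7% for Atp1b1 itself. Nme7, a nucleoside diphosphate kinase family gene, overlaps Atp1b1 at one end. Whether counting was stranded is not stated, so reads from the overlap cannot be told apart. Nme7 stood at 52.9 ± 9.79 (WT) against 36.4 ± 12.2 normalised reads (KO; SD, n = 5 each; limma adjusted p = 0.315). What part chromosomal position had in the fall of Atp1b1 was not tested. The 20 neighbours of Atp1b3 had a median difference of -0.05, with 12 lower and 8 higher, and 1 of them, PCOLCE2, fell.

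**Figure D4:**
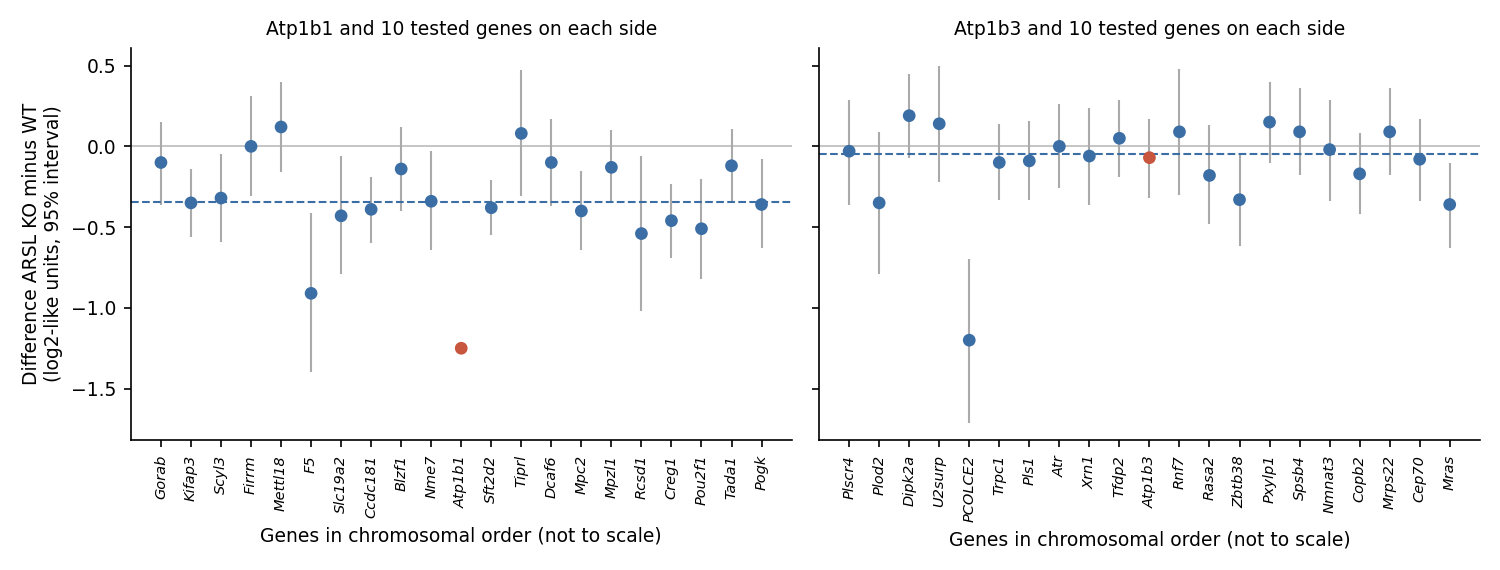
Difference ARSL KO minus WT with its 95% interval (vertical axis, log2-like units; no interval for Atp1b1, which was picked for its fall) for Atp1b1 and Atp1b3 (red) and 10 tested genes on each side in chromosomal order (blue), with the median of the 20 neighbours dashed. The median is -0.34 around Atp1b1 and -0.05 around Atp1b3.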

How the data were processed

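RNA was sequenced by a commercial service for digital mRNA-seq, as the protocols in the labels say. The submitters' processing notes name HTSeq, STAR 2.7.11a, bcl2fastq and the rn6 build. The authors deposited 1 table of log2-like, variance-stabilized values for 10184 genes in 10 libraries. No source used here names the transformation tool, gene filter or strand setting. The closed form of the transformation was inverted, and every value fell within 0.001 of a whole read (largest departure 1.6e-09). These totals cover listed genes only.

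Tested were 8431 genes whose mean exceeded the minimum of 4.42 by 1 or more (about 10.7 normalised reads). The groups were compared by limma 3.58.1 (R 4.3.3) with an intensity trend, two-sided, with Benjamini-Hochberg adjustment over all tested genes. The fit was tested on simulated data. The alternatives tried were limma-voom on recovered reads, a replicate block, a constant prior variance, other filters, other scalings (quantile or median) and fits with libraries left out. The lowest chi-square per degree of freedom between libraries of a group was 1.85 (WT 1 and WT 2), above sampling noise. WT 3 with WT 4 (2.367) and ARSL KO 1 with 2 (2.185) were also close. WT 3 or 4 against the other WT libraries gave 15.75 to 21.33. Libraries from 1 culture can also exceed sampling noise, so these values do not show independent cultures. All 10 were kept as separate samples because the labels call them biological replicates. Named genes were all pump subunits in the table, up to 2 called rises and 2 called falls of each other list or its smallest p, and the 5 genes most like Atp1b1; some of these are not reported here. Genes named beyond that rule (Tmem30a, Kcnma1, Sgk1, Snai2, Nr3c1, Canx, Krt8, Acan, Col2a1 and the neighbours) were chosen with their values known. The members and lists were chosen with earlier results of these data known. Symbols placed 92.6% of the tested genes, 7804, on GRCr8. Figures were drawn with matplotlib 3.10.9.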

Additional observations from a re-analysis of the deposited data

Results flagged for a closer look

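One library stood apart within its group among the 32 groups of 5 values examined (16 genes in 2 genotypes). Nme7, the neighbour that overlaps Atp1b1, had 16.1 normalised reads in ARSL KO 1, while the other 4 KO libraries had 35.8 to 46.2. The gap was 0.723 of the range of the group on the log2-like scale. Chance gives such a gap in about 1 in 20 groups.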

How the results depend on the processing

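The difference of Atp1b1 stayed between -1.47 and -1.12 over 18 other settings, and between -1.33 and -1.18 with 1 library left out. That of Atp1b3 lay between -0.13 and 0.02 with 1 library left out, the highest value being that without ARSL KO 4, and its adjusted p lay between 0.721 and 0.934 over all settings. The replicate block, the changed filters and the constant prior variance cannot alter the difference of a gene, so those settings are no check of its size. Krt8 was at 0.00 without ARSL KO 5. The count of genes called was 60 with the stricter filter, 300 without the 3 libraries high on component 1 (a setting added after seeing the data), and 33 to 101 with 1 library left out. Leaving out WT 3 gave 62, and leaving out replicates 1, 2, 3 and 5 of ARSL KO gave 53, 37, 33 and 37. Of the 96 calls, 91 were kept without the 3 libraries. Over all pump, transport, regulator and assembly lists, with Atp1b1 left out, the genes called were 0 to 1 with 1 library left out (0 without ARSL KO 2 or ARSL KO 5) and 4 without the 3 libraries, when Uggt1 also fell and Slc38a3 and Sp1 also rose. With replicate number as a block, 136 genes were called. Each number occurs once per group, so the block cannot change a difference (-1.25 for Atp1b1, -0.07 for Atp1b3), only its error. The limma adjusted p of Atp1b3 was then 0.764. Whether equal numbers pair the samples is not known. Deviations of same-numbered libraries correlated at -0.064, 0.069, -0.293, 0.587 and 0.263 for replicates 1 to 5. The value of WT 4 with ARSL KO 4 (0.587) was the highest of all pairs, and WT 1 correlated best with ARSL KO 5 (0.450). Component 1, with 51.1% of the variance, weighs on these values, so they cannot decide whether the samples were paired. The causes of the changes between settings were not tested. Low reads limit Fxyd1 and Fxyd6.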

Other observations

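The low values around Atp1b1 were set against all other places in the genome, a comparison chosen after the values were seen and given as a description. For each of 7384 tested genes with 10 placed genes on both sides, the median difference of those 20 neighbours was taken, leaving out the gene itself and leaving Atp1b1 out of every window. The median over all such windows was 0.02, the range -0.35 to 0.31, and that of Atp1b1 was -0.34. The 2 windows that were lower, those around Nme7 and Mpzl1 (-0.35 each), were centred within 5 genes of Atp1b1 and share most of its neighbours. Among windows centred more than 20 genes away, the lowest was that around Tex30 on chromosome 9, at -0.28. Over 17 other settings the median around Atp1b1 lay between -0.43 and -0.28, and 17 to 19 of its 20 neighbours were lower in KO. Without the 3 libraries high on component 1 it was -0.32. Among the 17 settings, the replicate block, the removed filter and the constant prior variance cannot alter these differences.

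The chromosome that carries Atp1b1 on GRCr8, chromosome 13, had 230 placed and tested genes, of which 171 (74.3%) were lower in KO, with a median difference of -0.12. It had the lowest median of the 21 chromosomes compared. Chromosome 17 followed, with 67.6% lower and a median of -0.09, and chromosome 12, with 60.4% and -0.06. The highest medians were 0.07 on chromosome 16 and 0.05 on X and on chromosome 4. Without the 3 libraries high on component 1 the medians of chromosomes 13 and 17 were equal at -0.12, with 74.8% and 72.1% of genes lower in KO. The median of chromosome 13 was smaller in size than the -0.34 around Atp1b1.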
